A study of Schizosaccharomyces pombe with 9 samples.

Results

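The nup211-1435 strain of the fission yeast Schizosaccharomyces pombe was compared with wild type (WT) by sequencing of polyadenylated RNA, with 3 nup211-1435 libraries and 3 WT libraries taken from the 9 libraries of the series. The 3 libraries of a rsm1 deletion strain were set beside them, to show which changes were weak or absent in that strain. Libraries were assigned by the strain, genotype and biological replicate in their labels, and all 6988 features of the count table were considered, of which 6227 had enough reads to be tested. The strain labelled IAP105 carries nup211-1435 together with a wild-type asp1 gene marked with kanMX. The strain labelled ASY240 lacks rsm1, which natMX replaces according to its label, and strain Sp1 is the WT. All are given as h- and were grown vegetatively to log phase at 30 °C in YES, a rich medium. The labels do not say what the asterisk in the genotype nup211-1435* stands for, and each genotype is represented by 1 strain. No strain carried the marked asp1 without the nup211 allele, so their effects cannot be told apart here.

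Nup211 is a large coiled-coil protein of the nuclear basket, the cage of filaments on the nuclear face of the pore complex, and is related to Mlp1 and Mlp2 of budding yeast and to human Tpr. The basket is a place where transcripts are gathered and checked before export, and the series asks how Nup211 and Rsm1 affect RNA 3′-processing and transcription termination. Asp1 makes and breaks down inositol pyrophosphates, signalling molecules known to act on the termination of transcripts at phosphate-responsive genes.

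Depth was 24.55 to 27.20 M counts in nup211-1435, 20.98 to 25.78 M in the strain labelled rsm1 deletion and 25.30 to 28.11 M in WT, so that 3 counts correspond to 0.106 to 0.139 CPM. CPM are read counts relative to library size, which was adjusted with edgeR's TMM factors. Values after ± are SDs over n = 3 libraries, and a feature was called at a Benjamini-Hochberg adjusted p under 0.05 in edgeR's quasi-likelihood test. The gene rsm1 was counted at 31.2, 33.2 and 30.98 CPM in the libraries labelled rsm1 deletion, against 37.1, 36.7 and 36.3 CPM in WT, so these counts do not show the deletion. In the reference annotation 2510 nt of rsm1 exon are shared with features on the opposite strand, and these libraries are therefore named by their label throughout. The leading principal component held 63.5% of the variance and the next 25.4%. Of the 10 markers of the M mating type 8 were measured, and their summed level was 168 to 173 CPM in nup211-1435, 237 to 245 CPM in the strain labelled rsm1 deletion and 223 to 246 CPM in WT. The defining markers mat1-Mc and mat1-Mi had 0 counts in every library, and the 5 markers of the P mating type summed to 555 to 561, 677 to 697 and 634 to 678 CPM in the same order of groups, so these counts do not settle the labelled mating type.

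In nup211-1435 against WT, 2048 features rose (32.9%) and 1994 fell (32%), which together made 64.9% of the features tested. Of these, 210 rose at least 2-fold (3.37%) and 187 fell at least 2-fold (3%), together 6.38%. The 3 libraries of each group did not overlap at 67.8% of the features. With scaling by total counts in place of TMM, 3065 rose and 1243 fell, so that the risen share of the calls was 71.1% in place of 50.7%, and the median log2 fold change of all features was 0.14 in place of 0.01. Fold changes below are relative to the TMM scale. Against the strain labelled rsm1 deletion, nup211-1435 was higher at 1526 features (24.5%) and lower at 1602 (25.7%), and 54 and 127 of them differed at least 2-fold. These 3128 features were 50.2% of those tested, beside 4405 (70.7%) called for the strain labelled rsm1 deletion against WT.

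A change was counted as selective for nup211-1435 when it was called at 2-fold or more against WT, was called in the same direction against the strain labelled rsm1 deletion, and was less than 50% as large on the log2 scale in the strain labelled rsm1 deletion against WT. Of 174 features that met the first 2 conditions, 93 met the third, 1.49% of the features tested. They comprised 34 that rose (0.546%) and 59 that fell (0.947%). The measured values chose these features, so their number and the values that chose them are a description. The risen set held 22 protein-coding genes, 11 long noncoding RNAs and 1 other RNA, and the fallen set held 23 protein-coding genes, 34 long noncoding RNAs and 2 ribosomal RNA features. In the fallen set, the strain labelled rsm1 deletion was not called against WT at 27 features, was called in the same direction at 18 and in the opposite direction at 14, while the corresponding numbers in the risen set were 16, 17 and 1. Just inside the limit lay cdc20, whose log2 change was 1.15 in nup211-1435 and 0.57 in the strain labelled rsm1 deletion, and just outside it lay SPNCRNA.871, at -2.47 and -1.24. Chromosomes I, II and III held 17, 12 and 5 of the risen features and 31, 21 and 7 of the fallen ones, beside 2820, 2263 and 1131 features tested.

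**Figure D1:**
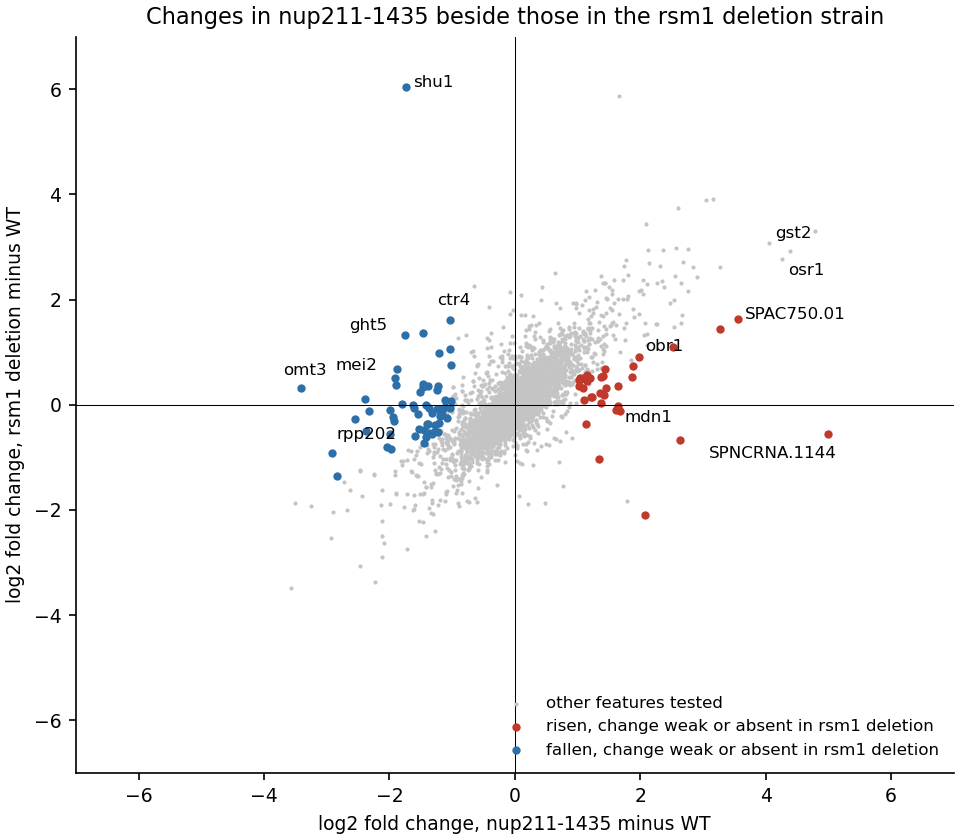
Log2 fold change against WT of every feature tested, with nup211-1435 on the horizontal axis and the strain labelled rsm1 deletion on the vertical axis. Coloured points are the 34 risen and 59 fallen selective features, whose change in the strain labelled rsm1 deletion is under 50% of that in nup211-1435 or of opposite sign, and SPNCRNA.1144 (4.999 in nup211-1435, -0.56 in the strain labelled rsm1 deletion) lies farthest right. Both axes share the WT libraries.

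At the marked asp1 locus, the noncoding RNA SPNCRNA.1144 was measured at 24.3, 26.1 and 26.9 CPM in nup211-1435, at 0.487, 0.551 and 0.603 CPM in the strain labelled rsm1 deletion and at 0.886, 0.563 and 0.952 CPM in WT. All 3 nup211-1435 libraries were thus far above the 6 others, and the log2 fold change was 4.999 (SE 0.13, adjusted p = 2.67e-13) against WT and 5.56 (SE 0.14) against the strain labelled rsm1 deletion. This RNA runs on the opposite strand to asp1 and shares 1070 nt with it in the reference annotation. The gene asp1 itself had 198, 201 and 197 CPM in nup211-1435, 148, 155 and 144 CPM in the strain labelled rsm1 deletion and 128, 131 and 133 CPM in WT, a rise of 0.60 (SE 0.03, adjusted p = 6.30e-10) over WT. Beyond SPNCRNA.1144, the processome gene utp21 rose by 0.32, whereas its log2 change in the strain labelled rsm1 deletion was -0.04 (adjusted p = 0.439).

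On the other side of asp1, its neighbour yrs1 had 300.0, 291 and 280.1 CPM in nup211-1435, 332, 335 and 337 CPM in the strain labelled rsm1 deletion and 492, 503 and 498 CPM in WT, a fall of 0.78 (SE 0.03) on the log2 scale. Both mutants were below WT at yrs1, and the change in the strain labelled rsm1 deletion was -0.57. Farther out, the guanine deaminase gene gud1 was at 70.3, 71.0 and 64.0 CPM in nup211-1435, at 100.5, 96.3 and 87.4 CPM in the strain labelled rsm1 deletion and at 137, 160 and 143 CPM in WT (-1.10, SE 0.07, against WT). The noncoding RNA SPNCRNA.1143, which lies opposite gud1 over 2183 nt of its exon, moved the other way. It was at 39.9, 40.0 and 38.8 CPM in nup211-1435, 20.6, 23.1 and 21.5 CPM in the strain labelled rsm1 deletion and 16.1, 14.0 and 14.5 CPM in WT (1.41, SE 0.06). The strand setting of the authors' counting is not known here, and reads of overlapping features on opposite strands may have been assigned to either.

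The allele itself could not be read from counts over the gene. The gene nup211 had 276, 265 and 260.3 CPM in nup211-1435, 259.7, 258 and 229.7 CPM in the strain labelled rsm1 deletion and 168, 189 and 183 CPM in WT, so both mutants were above WT without overlap. The gene rsm1 was at 44.1 ± 0.93 CPM in nup211-1435, 31.8 ± 1.25 CPM in the strain labelled rsm1 deletion and 36.7 ± 0.40 CPM in WT. Counts over rsm1 were thus above WT by 0.26 in nup211-1435 (SE 0.05, adjusted p = 0.000111). The same counts do not show the labelled deletion, and 2510 nt of the exon are shared with the opposite strand. They are therefore not read as a rise of the rsm1 transcript.

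Among mating and meiosis genes, mei2, ste4 and the long noncoding RNA omt3 fell in nup211-1435 and were at or above the WT level in the strain labelled rsm1 deletion. Other members rose or were not called. Fission yeast mates and enters meiosis when starved, under the transcription factor Ste11, a pheromone MAP kinase cascade and the RNA-binding protein Mei2, and growing cells keep these genes low. The gene mei2 had 19.2, 16.8 and 17.5 CPM in nup211-1435, 95.3, 97.7 and 94.2 CPM in the strain labelled rsm1 deletion and 69.0, 63.2 and 68.3 CPM in WT. Every nup211-1435 library was below all others, while the libraries labelled rsm1 deletion were above WT, and the log2 fold change was -1.91 (SE 0.05, adjusted p = 4.93e-13) against WT and -2.43 (SE 0.05, adjusted p = 2.03e-13) against the strain labelled rsm1 deletion. The long noncoding RNA omt3, annotated as a meiosis-specific RNA of Smp foci, was at 4.22, 3.81 and 2.83 CPM in nup211-1435, 49.99, 52.2 and 39.5 CPM in the strain labelled rsm1 deletion and 40.6, 37.2 and 36.3 CPM in WT (-3.40, SE 0.15, against WT). In the order of counted features, mei2, SPNCRNA.993 and omt3 are neighbours, and all 3 were selective falls. SPNCRNA.993, named here because of its position, averaged 0.639 CPM in nup211-1435, 1.41 CPM in the strain labelled rsm1 deletion and 2.54 CPM in WT.

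The cascade's adaptor gene ste4 had 15.2, 15.6 and 13.8 CPM in nup211-1435, 31.03, 31.7 and 31.9 CPM in the strain labelled rsm1 deletion and 30.6, 32.2 and 27.7 CPM in WT, a fall of 1.02 (SE 0.07, adjusted p = 5.59e-09) against WT. The MAP kinase gene spk1 had 17.98, 19.1 and 16.4 CPM in nup211-1435, 32.6, 34.0 and 31.8 CPM in the strain labelled rsm1 deletion and 45.3, 46.4 and 37.1 CPM in WT (-1.27, SE 0.08). At spk1, which shares 1525 nt with a gene on the opposite strand, the strain labelled rsm1 deletion was also below WT (-0.39). The gene ste11 did not pass the test against WT, with 38.0, 35.7 and 32.4 CPM in nup211-1435 and 33.6, 41.7 and 33.4 CPM in WT, but was below the 57.3, 61.2 and 64.0 CPM of the strain labelled rsm1 deletion (-0.78, SE 0.08). Of 21 genes of mating signalling and its targets, 7 rose and 9 fell against WT (33.3% and 42.9%), beside 32.9% and 32% of all features. Their median log2 fold change was -0.04, against 0.01 for all features, and 10 rose and 8 fell with total-count scaling. Against the strain labelled rsm1 deletion none was higher and 14 were lower (median -0.48), beside 24.5% and 25.7% of all features, with TMM and with total-count scaling alike. Another member that fell was the G-protein gene gpa1 (-0.51), and so did the pheromone exporter gene mam1, from the M markers (48.2 ± 2.16 CPM in nup211-1435, 80.4 ± 3.38 CPM in the strain labelled rsm1 deletion and 70.6 ± 4.10 CPM in WT). Rises included nrd1, which encodes an RNA-binding protein that restrains differentiation (0.84), and the kinase gene byr2 (0.61).

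The transporter genes ptr2, isp4 and ght5 fell in nup211-1435 and rose in the strain labelled rsm1 deletion, and are shown because of that pattern. Other uptake genes rose in both, among them those of iron uptake given below. The peptide transporter gene ptr2 had 21.96, 24.9 and 22.7 CPM in nup211-1435, 134, 138 and 139 CPM in the strain labelled rsm1 deletion and 77.2, 82.5 and 96.0 CPM in WT (-1.88, SE 0.08, adjusted p = 1.94e-09, against WT). The oligopeptide transporter gene isp4 had 25.2, 24.5 and 26.1 CPM in nup211-1435, 114, 105.7 and 128 CPM in the strain labelled rsm1 deletion and 58.8, 58.8 and 57.3 CPM in WT (-1.20, SE 0.07). The 3 groups did not overlap at either gene, with nup211-1435 lowest and the strain labelled rsm1 deletion highest. The high-affinity glucose transporter gene ght5 had 82.5, 68.9 and 65.5 CPM in nup211-1435, 606, 569.6 and 639.6 CPM in the strain labelled rsm1 deletion and 174, 337 and 215 CPM in WT (-1.75, SE 0.26, adjusted p = 0.00103, against WT). WT was the most variable group at ght5, yet none of its libraries reached down to nup211-1435. The uncharacterized gene SPCC1235.18 lies next to ght5 and showed the same order of groups, with means of 0.821, 5.89 and 2.27 CPM in nup211-1435, the strain labelled rsm1 deletion and WT.

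The genes ctr4 and ctr5 encode the partner subunits of the high-affinity copper transporter. For ctr5, the values were 57.9, 45.1 and 62.3 CPM in nup211-1435, 239.9, 228 and 241 CPM in the strain labelled rsm1 deletion and 88.8, 108 and 140.5 CPM in WT (-1.03, SE 0.19, adjusted p = 0.00286, against WT). For ctr4, they were 54.6, 29.3 and 56.1 CPM in nup211-1435, 287, 283 and 306 CPM in the strain labelled rsm1 deletion and 63.6, 84.7 and 139 CPM in WT. The spread within nup211-1435 and within WT was wide at ctr4, and its fall of 1.04 (SE 0.36, adjusted p = 0.0408) was close to the threshold. The call was lost when any 1 library other than WT replicate 1 was left out, with adjusted p between 0.0587 and 0.104 in edgeR's test, and the fall was 0.67 without WT replicate 3. It was also lost with total-count scaling (-0.90, adjusted p = 0.0611) and with only the 2 groups in the edgeR fit (adjusted p = 0.101). The risen selective feature at which a fall was called in the strain labelled rsm1 deletion was SPNCRNA.923, a noncoding RNA that overlaps ctr5 on the opposite strand over 451 nt. It averaged 9.49 CPM in nup211-1435, 3.31 CPM in the strain labelled rsm1 deletion and 4.31 CPM in WT, and was picked out for this pattern. Among iron genes, shu1, which encodes a heme-binding surface protein, had 0.0398, 0.195 and 0.283 CPM in nup211-1435, 43.3, 45.9 and 31.1 CPM in the strain labelled rsm1 deletion and 0.591, 0.604 and 0.609 CPM in WT. Levels in nup211-1435 and WT were near the 3-count floor there, and its call against WT was lost without nup211-1435 replicate 1 or 2 or without any 1 WT library (adjusted p 0.0752 to 0.125), and with total-count scaling (adjusted p = 0.0518). The spermidine family transporter gene mfs3 fell by 1.24 (SE 0.08), with 101 ± 7.53 CPM in nup211-1435, 289 ± 26.8 CPM in the strain labelled rsm1 deletion and 239 ± 17.5 CPM in WT.

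**Figure D2:**
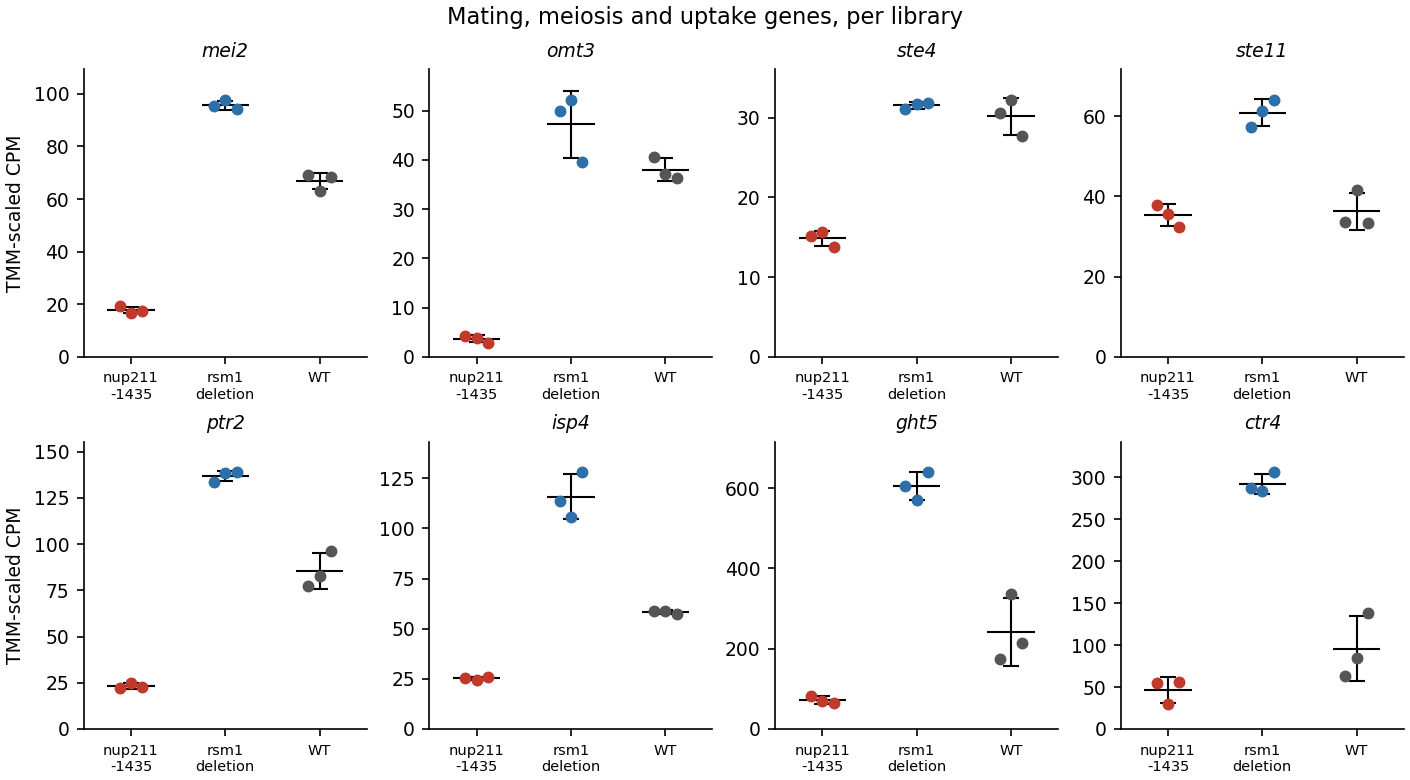
TMM-scaled CPM of 8 mating, meiosis and uptake genes in each library, with 3 points per group, the mean as a horizontal line and the SD as a bar. At mei2, omt3, ste4, ptr2, isp4 and ght5 the nup211-1435 libraries lie below all others, at ste11 they overlap WT, and at ctr4 they lie below WT with a small gap to its lowest library.

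In the lists to which these genes belong, more members were lower than in the strain labelled rsm1 deletion than fell against WT. For comparison, 32.9% of all features rose and 32% fell against WT. In the comparison with the strain labelled rsm1 deletion, 24.5% of all features were higher and 25.7% lower. Of 22 nitrogen and peptide genes, 6 rose and 11 fell against WT (8 each with total-count scaling), while 3 were higher and 15 lower than in the strain labelled rsm1 deletion. Besides ptr2 and isp4, the larger falls against WT were those of the glutamate dehydrogenase gene gdh1, at 523 CPM in nup211-1435, 664 CPM in the strain labelled rsm1 deletion and 1232 CPM in WT (-1.24), and of the arginine synthesis gene arg3 (-0.99). Of 20 glucose-repressed genes, 5 rose and 6 fell against WT, with a median of -0.06 that became 0.08 with total-count scaling, and 1 was higher and 15 lower than in the strain labelled rsm1 deletion (median -0.60). The dihydroxyacetone kinase gene dak2 had 62.1, 57.7 and 56.9 CPM in nup211-1435, 185.6, 180.2 and 197 CPM in the strain labelled rsm1 deletion and 67.7, 63.8 and 69.8 CPM in WT. The glucose receptor gene git3 stood at 64.4 CPM in nup211-1435, 126 CPM in the strain labelled rsm1 deletion and 66.3 CPM in WT, with no call against WT (-0.04, adjusted p = 0.36). The gluconeogenesis gene fbp1 was the exception that was higher than in the strain labelled rsm1 deletion, at 14.5 CPM in nup211-1435, 11.1 CPM in the strain labelled rsm1 deletion and 5.4 CPM in WT. Of 16 iron and heme uptake genes, 7 rose and 5 fell against WT (9 and 2 with total-count scaling), and 2 were higher and 12 lower than in the strain labelled rsm1 deletion. The siderophore transporter gene str1 was at 168, 179 and 174 CPM in nup211-1435, 404, 414 and 327 CPM in the strain labelled rsm1 deletion and 20.98, 19.2 and 45.3 CPM in WT (2.60, SE 0.31, against WT), so that its rise was shared and smaller. The ferroxidase gene fio1 (2.12) and its permease partner fip1 (1.75) behaved alike, with 2.94 and 2.64 in the strain labelled rsm1 deletion.

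Core stress genes, which respond to many stresses through the MAP kinase Sty1 and the transcription factor Atf1, rose less in nup211-1435 than in the strain labelled rsm1 deletion. Of 24 genes, 11 rose and 2 fell against WT (19 and 2 with total-count scaling), beside 32.9% and 32% of all features. None was higher and 18 were lower than in the strain labelled rsm1 deletion (median -0.33), beside 24.5% and 25.7% of all features. The small heat shock gene hsp9 had 264, 258 and 239.5 CPM in nup211-1435, 612, 620 and 592 CPM in the strain labelled rsm1 deletion and 234, 170.2 and 244 CPM in WT. It was not called against WT (0.23, adjusted p = 0.151) except with total-count scaling (0.37, adjusted p = 0.0306). The difference was 0.09 without WT replicate 2. The gene hsp9 was lower than in the strain labelled rsm1 deletion by 1.26 (SE 0.13). The gene hsp16 followed the same order, with 112, 261 and 95.8 CPM in nup211-1435, the strain labelled rsm1 deletion and WT. The gene rds1 fell to 104, 95.9 and 85.4 CPM in nup211-1435, against 316, 325 and 314 CPM in the strain labelled rsm1 deletion and 123, 129 and 119 CPM in WT (-0.38, SE 0.06, against WT). The factor gene atf1 rose by 0.55 (SE 0.04), with 1.04 in the strain labelled rsm1 deletion, and the nuclear envelope stress gene ish1 by 1.20, with 1.56.

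Oxidative stress genes gave the opposite contrast between the mutants. Pap1 is a transcription factor that moves into the nucleus under oxidants or when its export fails, and drives detoxifying reductases, transferases and efflux pumps. Of 21 Pap1 and oxidative stress genes, 15 rose and 1 fell against WT (19 and none with total-count scaling), 8 of the rises being at least 2-fold, beside 3.37% of all features. Over all features 32.9% rose and 32% fell against WT. Against the strain labelled rsm1 deletion 12 were higher and 4 lower (median 0.31), or 11 and 4 with total-count scaling. The shares of all features there were 24.5% and 25.7%. The dehydrogenase gene osr1 had 279, 286 and 267 CPM in nup211-1435, 113, 99.96 and 81.2 CPM in the strain labelled rsm1 deletion and 13.1, 14.5 and 15.5 CPM in WT. The glutathione S-transferase gene gst2 had 2367, 2250.4 and 2267 CPM in nup211-1435, 1234, 1184 and 1076 CPM in the strain labelled rsm1 deletion and 132, 136 and 146 CPM in WT. The 3 groups were separate at both genes, and nup211-1435 was higher than the strain labelled rsm1 deletion by 1.498 (SE 0.10) for osr1 and 0.98 (SE 0.05) for gst2. The brefeldin A resistance pump gene bfr1 was at 998 CPM in nup211-1435, 605 CPM in the strain labelled rsm1 deletion and 208 CPM in WT.

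The selective member of the oxidative stress list was obr1, annotated as a quinone dehydrogenase, with 3919, 3575 and 3466 CPM in nup211-1435, 1828, 1732 and 1650.4 CPM in the strain labelled rsm1 deletion and 941, 1014 and 811 CPM in WT (1.99, SE 0.09, adjusted p = 6.98e-08, against WT). It lies wholly opposite a noncoding RNA. The thioredoxin gene trx2 rose less and was not called in the strain labelled rsm1 deletion against WT (0.05, adjusted p = 0.196), with 117, 114 and 109.9 CPM in nup211-1435, 82.7, 83.2 and 83.0 CPM in the strain labelled rsm1 deletion and 80.4, 77.4 and 81.9 CPM in WT (0.51, SE 0.04). The sulfiredoxin gene srx1 and the factor gene pap1 went the other way between the mutants. The values for pap1 were 216.01, 221 and 228 CPM in nup211-1435, 306, 303 and 297 CPM in the strain labelled rsm1 deletion and 172, 180.1 and 170.0 CPM in WT, and srx1 was lower than in the strain labelled rsm1 deletion by 0.41 (SE 0.13). SPAC750.01, annotated as an aldo/keto reductase, had 314, 319 and 312 CPM in nup211-1435, 88.0, 52.0 and 109 CPM in the strain labelled rsm1 deletion and 6.63, 40.9 and 31.6 CPM in WT. Its nup211-1435 libraries were close together and above the others, while WT ranged widely and near-identical family members may share its reads, which leaves the size of its change (3.57, SE 0.53, adjusted p = 0.00102) uncertain.

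Of 20 glutathione and sulfur assimilation genes, 8 rose and 11 fell in nup211-1435 (median log2 fold change -0.10), beside 32.9% and 32% of all features. With total-count scaling 8 rose and 6 fell (median 0.04). The rises included gcs1, gcs2, gsa1 and pgr1, which act in making or recycling glutathione, the main soluble thiol of the cell, and were singled out after their values were seen. Glutamate-cysteine ligase carries out the first step through a catalytic subunit, gcs1, and a regulatory subunit, gcs2. The gene gcs1 had 497, 495 and 504 CPM in nup211-1435, 391, 378 and 372 CPM in the strain labelled rsm1 deletion and 288, 288 and 293 CPM in WT (0.78, SE 0.03), and gcs2 rose by 0.75 (SE 0.04), with 0.43 in the strain labelled rsm1 deletion. The glutathione synthetase gene gsa1 had 238, 233 and 227 CPM in nup211-1435, 177, 176 and 184 CPM in the strain labelled rsm1 deletion and 171, 169 and 167 CPM in WT (0.46, SE 0.03). The glutathione reductase gene pgr1 had 455, 456 and 456 CPM in nup211-1435, 346, 344 and 349 CPM in the strain labelled rsm1 deletion and 351, 352 and 356 CPM in WT (0.37, SE 0.03, adjusted p = 8.59e-09). At pgr1 the strain labelled rsm1 deletion was not called against WT (-0.03, adjusted p = 0.339), and all nup211-1435 libraries were above both other groups. These rises were under 2-fold and lie outside the selective set. The falls in the list included met17, an enzyme of sulfur amino acid synthesis (-1.11, with -0.86 in the strain labelled rsm1 deletion), and the glutaredoxin genes grx4 and grx5 (-0.51 each).

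**Figure D3:**
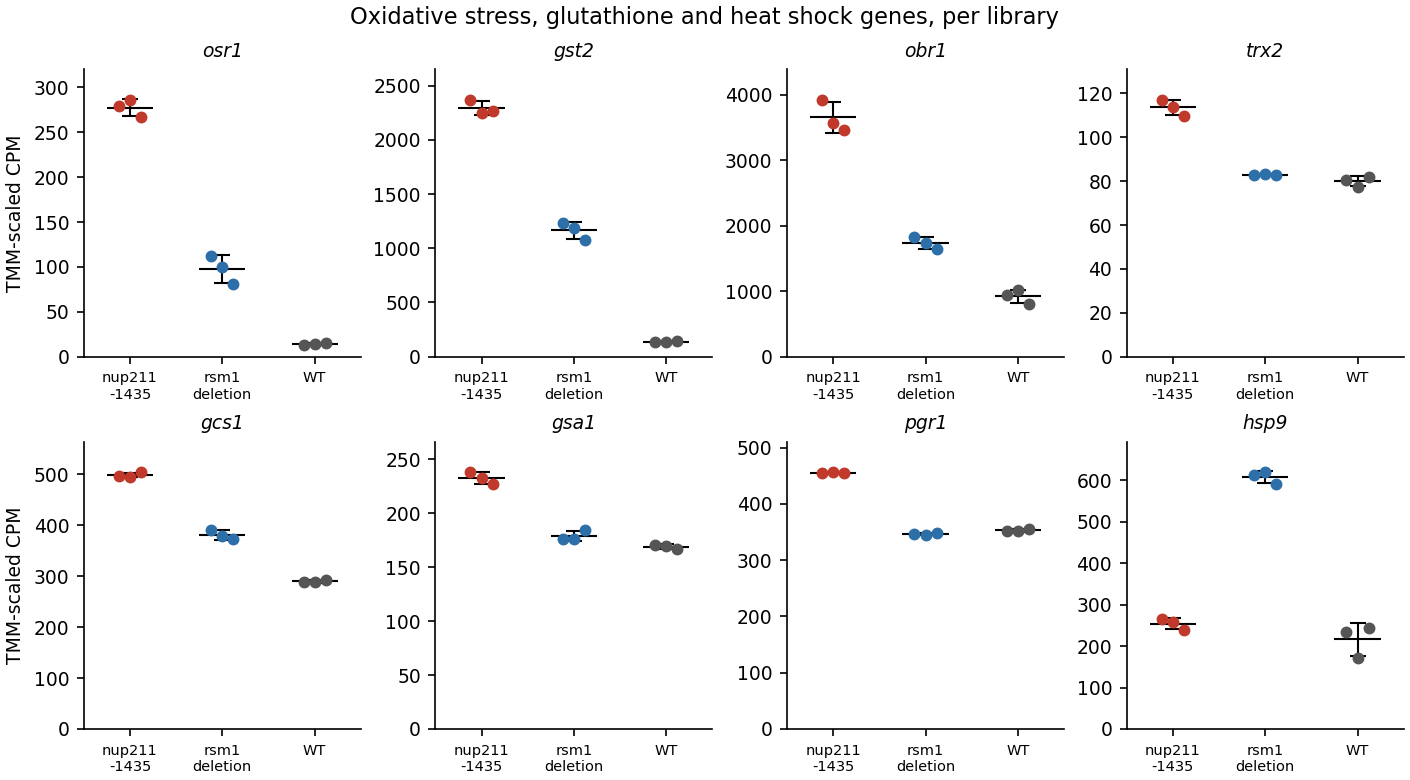
TMM-scaled CPM of 8 oxidative stress, glutathione and heat shock genes in each library, with 3 points per group, the mean as a horizontal line and the SD as a bar. The nup211-1435 libraries lie above both other groups at osr1, gst2, obr1, trx2, gcs1, gsa1 and pgr1, and far below the strain labelled rsm1 deletion at hsp9.

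Long protein-coding genes made up 10 of the 34 risen selective features. By annotated exon length, the median log2 fold change of nup211-1435 against WT was -0.12 for the 952 genes under 1 kb, -0.03 for 1 to 2 kb, 0.06 for 2 to 3 kb, 0.16 for 3 to 4 kb, 0.30 for 4 to 6 kb, 0.56 for 6 to 9 kb and 1.43 for over 9 kb. With total-count scaling the median of the shortest class was 0.01 and that of the longest 1.57. The strain labelled rsm1 deletion had medians of -0.19, -0.05, 0.12, 0.20, 0.31, 0.29 and 0.21 in the same order. For nup211-1435 against that strain they were 0.05, 0.01, -0.05, -0.05, 0.01, 0.26 and 1.19. Both mutants thus rose with length up to 6 kb, less steeply in nup211-1435 up to 4 kb, and only nup211-1435 rose further beyond 6 kb. Each nup211-1435 library showed this, with medians over WT of 1.38, 1.42 and 1.49 for genes over 9 kb, against 0.21, 0.28 and 0.14 in the libraries labelled rsm1 deletion. Across 4995 protein-coding genes, exon length and log2 fold change had a Spearman correlation of 0.34 in nup211-1435 against WT and of 0.37 in the strain labelled rsm1 deletion against WT. Between nup211-1435 and the strain labelled rsm1 deletion it was -0.14. Relative to the strain labelled rsm1 deletion, the longer genes were thus not the higher ones in nup211-1435 over all lengths. For long genes, an excess over that strain was seen in the classes over 6 kb. These correlations are over genes, which share libraries and are not independent, and the comparisons share libraries. Length was annotated exon length, and RNA integrity per library was not analysed here, and its part in this result was not tested.

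All 18 tested genes with over 8 kb of exon rose in nup211-1435, beside 32.9% of all features. These 18 were also called above the strain labelled rsm1 deletion, beside 24.5% of all features, and 10 were selective. Their libraries did not overlap in that comparison, for which the share without overlap over all features was not counted. In the class of 6 to 9 kb, 43 of 52 genes rose and 5 fell against WT. In the same class 39 were higher and 4 lower than in the strain labelled rsm1 deletion. Since all 18 genes over 8 kb rose, none of them could be among the 59 fallen selective features. The midasin gene mdn1, an AAA-type ATPase that remodels pre-ribosomes, has 14352 nt of exon and had 1034, 973 and 946 CPM in nup211-1435, 317, 322 and 286 CPM in the strain labelled rsm1 deletion and 312, 289 and 338 CPM in WT. Its log2 fold change was 1.65 (SE 0.06, adjusted p = 1.425e-09) against WT, and the strain labelled rsm1 deletion was not called (-0.02, adjusted p = 0.763). The ferrichrome synthetase gene sib1, the longest at 15002 nt, had 364, 373 and 379 CPM in nup211-1435, 158, 158 and 143 CPM in the strain labelled rsm1 deletion and 117, 119 and 122 CPM in WT (1.64, SE 0.04). With sib3, it was one of the 2 iron genes that were higher than in the strain labelled rsm1 deletion (1.28 for sib1 and 0.26 for sib3). The glycoprotein gene SPBPJ4664.02 (12171 nt) averaged 107 CPM in nup211-1435, 32.6 CPM in the strain labelled rsm1 deletion and 35.1 CPM in WT.

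The paralogous histone acetyltransferase scaffolds tra1, of the SAGA complex, and tra2, of NuA4, rose by 1.22 and 1.37 (SE 0.04 each), with 0.15 and 0.04 in the strain labelled rsm1 deletion. The ubiquitin ligase gene ptr1, first described for a role in mRNA transport, had 761, 798 and 813 CPM in nup211-1435, 364, 372 and 347 CPM in the strain labelled rsm1 deletion and 303, 303 and 320.2 CPM in WT (1.36, SE 0.04). The lipid transfer protein genes vps1301 and vps1302 rose by 1.45 and 1.89 and the beige-domain gene lvs1 by 1.02. The dynein heavy chain gene dhc1, which moves the nucleus in meiotic prophase, rose by 1.42 (SE 0.06), while the noncoding RNA SPNCRNA.1006 on its opposite strand fell to 0.868 CPM in nup211-1435, against 1.57 CPM in the strain labelled rsm1 deletion and 1.99 CPM in WT (-1.21). Among long genes that were not selective, the checkpoint kinase genes rad3 and tel1 rose by 1.23 and 0.80, with 0.63 and 0.11 in the strain labelled rsm1 deletion, and hob2 rose by 1.23 with 0.90. The translation regulator gene gcn1 had 567, 611 and 633 CPM in nup211-1435, 404, 398 and 382 CPM in the strain labelled rsm1 deletion and 384, 383 and 399.8 CPM in WT (0.63, SE 0.04). It missed the 2-fold limit, although the libraries labelled rsm1 deletion overlapped WT.

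**Figure D4:**
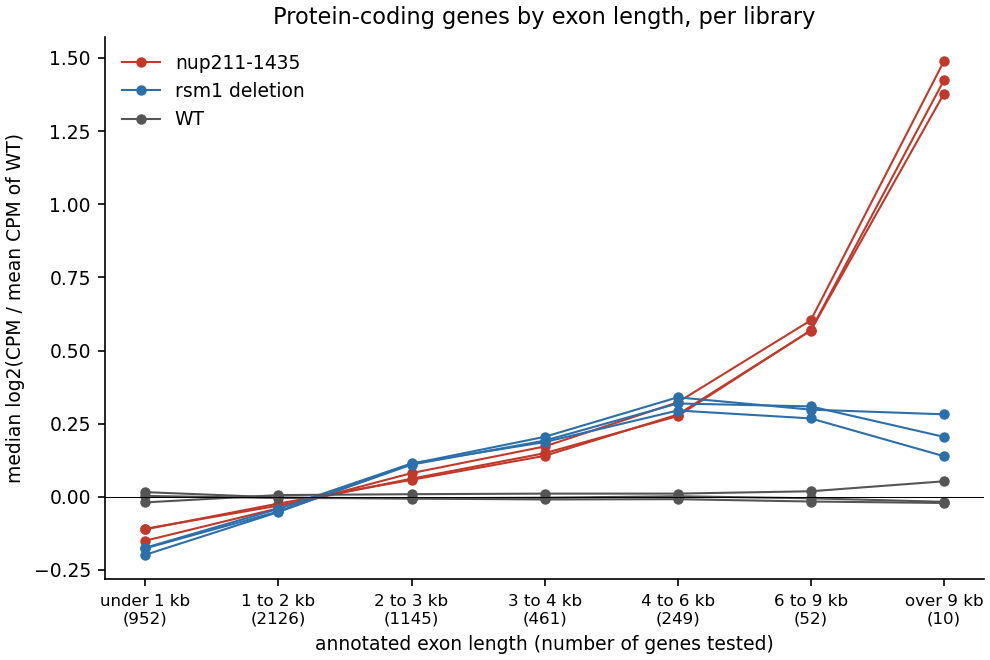
Median over protein-coding genes of log2 of CPM divided by the WT mean, for each library and each class of annotated exon length, with the number of genes in brackets. The WT libraries lie near 0 because they define the denominator. The 3 nup211-1435 libraries lie well above the libraries labelled rsm1 deletion beyond 6 kb, reaching 1.38 to 1.49 over 9 kb.

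Abundant genes among the selective falls included rpp202 and eca39. The gene rpp202, one of several for the acidic ribosomal stalk protein P2, had 332, 332 and 312 CPM in nup211-1435, 720.1, 671 and 676 CPM in the strain labelled rsm1 deletion and 942, 976 and 913 CPM in WT (-1.53, SE 0.04, adjusted p = 1.52e-13). Its neighbour SPBC23G7.14, which shares 97 nt with it on the opposite strand, averaged 23.8 CPM in nup211-1435, 50.1 CPM in the strain labelled rsm1 deletion and 51.6 CPM in WT. P2 paralogs are similar in sequence, so single values of the family are uncertain. Of 82 large-subunit ribosomal protein genes none rose and 77 fell (median -0.37), and of 55 small-subunit genes none rose and 53 fell (median -0.38). Over all features 32.9% rose and 32% fell, with a median of 0.01. In the strain labelled rsm1 deletion the medians of the 2 lists were -0.44 and -0.42. With total-count scaling 1 large-subunit gene rose and 74 fell, and none and 48 of the small-subunit genes. The branched-chain aminotransferase gene eca39 had 816, 814 and 794 CPM in nup211-1435, 1341, 1327 and 1305 CPM in the strain labelled rsm1 deletion and 1903, 1869 and 1895 CPM in WT (-1.23, SE 0.03). Both groups of mutant libraries were below WT at eca39 and rpp202, and nup211-1435 was the lower.

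Other selective rises with at least 10 CPM included those of gnr1, a G-protein beta subunit gene, at 34.4, 30.7 and 24.6 CPM in nup211-1435, 12.4, 11.6 and 11.5 CPM in the strain labelled rsm1 deletion and 8.48, 7.41 and 8.65 CPM in WT (1.87, SE 0.12), and of SPBC1348.12, annotated as a transcription factor (1.24, SE 0.08). The gene spo2, which lies next to vps1302, averaged 32.8 CPM in nup211-1435, 16.3 CPM in the strain labelled rsm1 deletion and 15.3 CPM in WT.

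Of 1127 long noncoding RNAs tested, 251 rose and 350 fell, or 327 and 277 with total-count scaling. Among the 751 that overlap a protein-coding gene on the opposite strand 187 rose and 198 fell (24.9% and 26.4%, median 0.01). Among the 168 that overlap no counted feature 24 rose and 61 fell (14.3% and 36.3%, median -0.17), beside 32.9% and 32% of all features. These subsets were not counted with total-count scaling, which moved the median of the 1127 from -0.07 to 0.06. The RNA SPNCRNA.863 had 12.2, 17.4 and 16.6 CPM in nup211-1435, 45.9, 41.6 and 41.5 CPM in the strain labelled rsm1 deletion and 110.3, 128 and 93.0 CPM in WT (-2.84, SE 0.16). SPNCRNA.1063, SPNCRNA.888 and SPNCRNA.779 fell by 1.46, 1.46 and 1.39 and rose by 0.33, 0.39 and 0.35 in the strain labelled rsm1 deletion. For SPNCRNA.888 the values were 5.45, 4.63 and 5.41 CPM in nup211-1435, 18.3, 19.7 and 17.8 CPM in the strain labelled rsm1 deletion and 14.3, 13.9 and 14.4 CPM in WT. It lies wholly within the annotated extent of a gene on the opposite strand. Of the 34 fallen selective noncoding RNAs 23 overlap some feature that way, as do 9 of the 11 risen ones. Such overlap is common in the whole class, where 751 of 1127 overlap a protein-coding gene on the opposite strand. It is therefore not a trait particular to the selective RNAs.

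The machinery named in the title of the series moved by small amounts. For comparison, 32.9% of all features rose and 32% fell against WT. In the comparison with the strain labelled rsm1 deletion, 24.5% of all features were higher and 25.7% lower. Of 30 nuclear pore genes 16 rose and 2 fell against WT (25 and none with total-count scaling), none by 2-fold, the largest being nup189 and alm1 (0.62 each). Of 19 genes for 3′-processing, 10 rose and 7 fell, or 12 and 3 with total-count scaling, and 3 were higher and 2 lower than in the strain labelled rsm1 deletion. One of those lower was swd22, a subunit tied to termination factors, with 46.8, 45.1 and 43.8 CPM in nup211-1435, 58.4, 56.8 and 57.3 CPM in the strain labelled rsm1 deletion and 58.4, 54.7 and 55.8 CPM in WT (-0.32, SE 0.04). Of 13 termination genes 3 rose and 5 fell (23.1% and 38.5%), or 7 and 2 with total-count scaling. The helicase gene sen1 was at 226, 243 and 239 CPM in nup211-1435, 194, 190.5 and 192 CPM in the strain labelled rsm1 deletion and 178, 168 and 193 CPM in WT (0.39, SE 0.04). Of 27 mRNA export genes 11 rose and 4 fell, or 19 and 3 with total-count scaling, and all but ptr1 changed by under 2-fold. Among 25 genes for the exosome and for RNA elimination, 8 rose and 6 fell, or 15 and 2 with total-count scaling, while 14 were higher and 2 lower than in the strain labelled rsm1 deletion. Among those higher was pir2, the fission yeast relative of the RNA-sorting factor Ars2, which rose by 0.28 (SE 0.03) over WT and was not called in the strain labelled rsm1 deletion (-0.01). Of 51 ribosome assembly genes 21 rose and 12 fell, or 32 and 6 with total-count scaling, and 25 were higher and none lower than in the strain labelled rsm1 deletion. The list does not hold the midasin gene mdn1, which was higher than in that strain by 1.67. Within the list, these differences were led by utp20, a processome component. It was at 282, 289 and 304 CPM in nup211-1435, 195, 205 and 191 CPM in the strain labelled rsm1 deletion and 177, 160 and 184 CPM in WT.

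**Figure D5:**
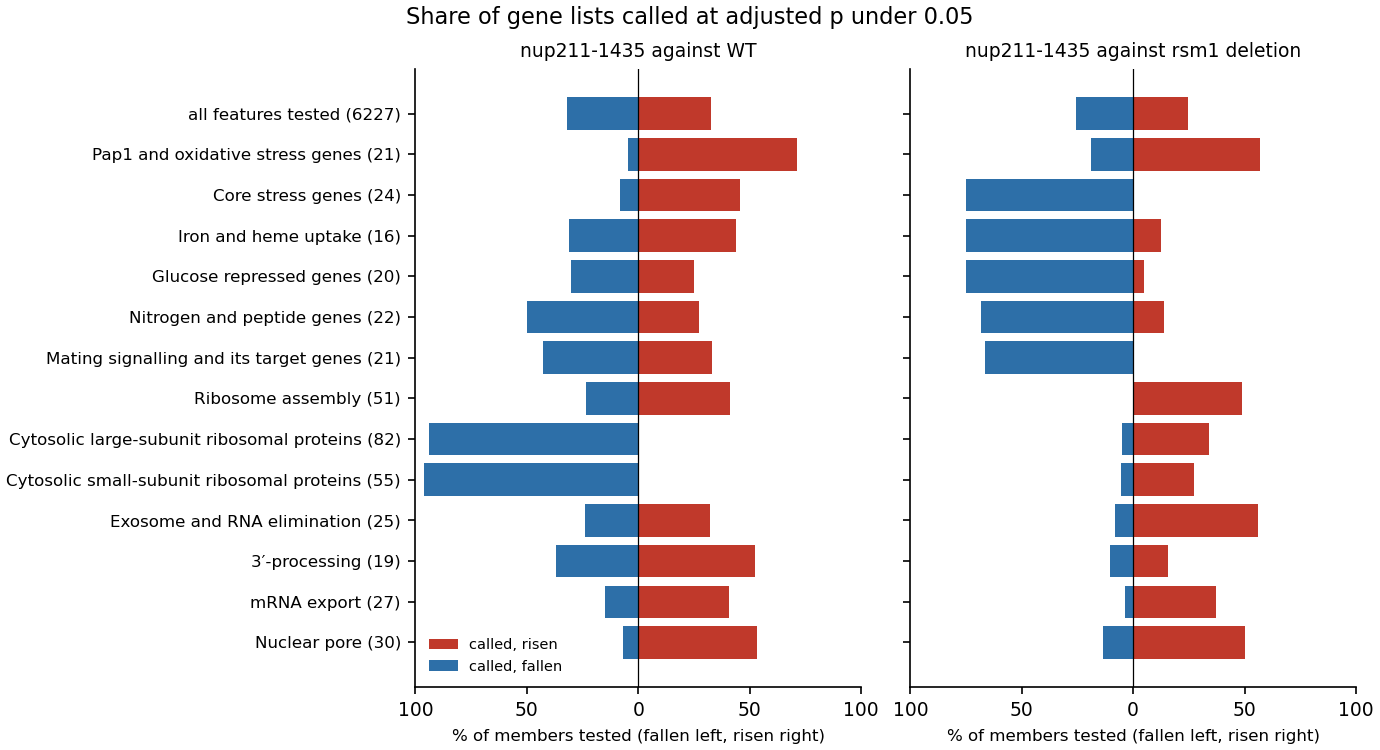
Share of the members tested in each gene list that were called risen (right) or fallen (left) at an adjusted p under 0.05, for nup211-1435 against WT and against the strain labelled rsm1 deletion, with all features tested in the top row and list sizes in brackets. Against the strain labelled rsm1 deletion, 18 of 24 core stress genes and 15 of 20 glucose-repressed genes were lower, and 25 of 51 ribosome assembly genes were higher.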

How the data were processed

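Polyadenylated RNA of 9 libraries was counted by the authors with HTSeq 0.10.0 after alignment with HISAT2 2.1.0 to ASM294v2, per the submitters' processing notes, and raw counts per feature were deposited. The strand setting and annotation are not stated there. The authors' deposited tables of fold changes also hold log2 values, p-values, scores (standard errors and test statistics) and mean counts in a normalized signal scaled by size factors, from DESeq2 per the file headers, and were read only for a comparison of calls.

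Here the counts of all 9 libraries were fitted together with edgeR 4.0.16 (R 4.3.3, limma 3.58.1), with TMM scaling, filterByExpr (minimum count 10, minimum total 15) and robust quasi-likelihood tests with Benjamini-Hochberg adjustment over 6227 features. The filter left out 761 features, of which 300 had 0 counts in every library. DESeq2 1.42.0 was an alternative. On counts simulated for nup211-1435 against WT over 6199 genes, the fit recovered 89% of 100 genes changed 1.5-fold and 98% of 100 changed 2-fold. Of the simulated calls 6.5% were false. Only these genes were changed, up and down in equal number, whereas 64.9% of the features were called in the data. The simulated rates therefore need not hold for the calls above. Floors of 3 counts cover counting error only.

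Names, gene order, exon lengths and overlaps came from the RefSeq annotation, which is of the build ASM294v3, so no coordinates are given. Of 6988 features, 6836 matched by systematic ID, 12 by synonym and 140 not at all. Libraries labelled as biological replicates were grouped by their labels.

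Named genes were drawn from the marked or targeted genes with their neighbours, and from the 15 largest rises and falls with at least 10 CPM and separate libraries. Further sources were the same number among selective features and up to 5 called members per list with its leading regulator. The last source was up to 6 features per direction that moved oppositely in the strain labelled rsm1 deletion. Not all of these are named above. Those left out include the pseudogene SPCC18B5.02c (4.78 against WT, with 3.31 in the strain labelled rsm1 deletion). Also left out was grt1, the largest of these falls (-3.57, with -3.49 in the strain labelled rsm1 deletion). Genes outside this rule, among them dak2, git3, hsp9, hsp16, rds1, trx2, pgr1, swd22 and long genes, were chosen after their values were seen. The gene lists, the members and the tests were chosen with earlier results of these data known. Promoter motifs were not analysed here.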

Additional observations from a re-analysis of the deposited data

How the results depend on the processing

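With total-count scaling 1243 features fell in nup211-1435 against WT, and that scaling also raised the median over all features. With a test against a 1.5-fold change (glmTreat), which asks for larger changes by construction, 568 features were called against WT (299 risen, 269 fallen), 187 against the strain labelled rsm1 deletion (55 higher, 132 lower), 703 for that strain against WT, and 58 were selective (19 risen, 39 fallen). When the strain labelled rsm1 deletion was allowed less than 25% of the change, 57 features were selective, 16 of them risen, and with less than 75% there were 156, of which 63 rose and 93 fell. Leaving out 1 library at a time gave 3748 to 4033 calls against WT. Of the 93 selective features, 88 were also selective with DESeq2, 92 with RLE scaling, 78 with total-count scaling and 58 with glmTreat. With DESeq2 1941 features rose and 1947 fell against WT. The authors' deposited table called 4012 of 6729 features, 3884 of them also called here, all with the same sign. The replicate numbers were not taken to pair the libraries. Same-numbered nup211-1435 and WT libraries had correlations of 0.02, 0.01 and 0.05, and those of nup211-1435 and the strain labelled rsm1 deletion 0.23, -0.03 and 0.17. Between these 2 mutants, replicate 1 against 3 had -0.18 and replicate 3 against 1 had -0.24. Whether their replicates share an order was not tested beyond the block below. With the number as a replicate block 2052 features rose and 2005 fell. Depth limits shu1 and other features near the 3-count floor.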

Other observations

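Most genes listed for adhesion and flocculation were lower in nup211-1435 than in the strain labelled rsm1 deletion. The list mixes flocculins with regulators such as cbf12 and lkh1, and the direction in which each acts was not taken into account. Of 19 genes, 12 rose and 3 fell against WT (14 and 2 with total-count scaling), beside 32.9% and 32% of all features. Of the same genes, 2 were higher and 14 lower than in the strain labelled rsm1 deletion, beside 24.5% and 25.7% of all features. The transcription factor gene cbf12, which promotes adhesion, changed by 1.27 in nup211-1435 and 2.19 in the strain labelled rsm1 deletion, and the kinase gene lkh1 by 0.70 and 1.15. Among flocculin genes, pfl3, pfl4, pfl5 and pfl8 rose by 0.27, 0.30, 0.27 and 0.44 in nup211-1435, and pfl2 was not called (0.06). The flocculin genes pfl7 and pfl9 fell in both, with 0.50 ± 0.09 CPM of pfl7 in nup211-1435, 1.25 ± 0.44 CPM in the strain labelled rsm1 deletion and 4.86 ± 0.45 CPM in WT.

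Among 17 G1/S genes of the MBF factor 5 rose and 6 fell (29.4% and 35.3%), near the 32.9% and 32% of all features. With total-count scaling 9 rose and 3 fell. The S-phase cyclin gene cig2 rose by 0.66, while cdt2, which helps degrade replication inhibitors, changed by -0.79 and the inhibitory kinase gene mik1 by -0.68. Of 34 small nucleolar RNA features 18 rose and 3 fell, beside 14 and 5 in the strain labelled rsm1 deletion. Polyadenylated RNA was selected, so these are polyadenylated or host-transcript reads and not the level of the mature RNAs.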
